A study of Mus musculus with 50 samples.

Results

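The cytokines that drive osteoclast formation were followed in mouse digits after amputation of the terminal phalanx. The 5 genes taken were Tnfsf11, which encodes RANKL, Tnfrsf11b, which encodes its decoy receptor osteoprotegerin (OPG), Csf1, Il34 and Csf2, which encodes GM-CSF. They were chosen by name with earlier results of these data known, as were the pathway and marker lists used below. They are 5 of the 21954 genes in the deposited tables, and the ratio of Tnfsf11 to Tnfrsf11b was followed beside them. The digits were from hindlimb digit 3 of male C57Bl/6 mice aged 9 to 10 weeks, without a transgene or drug treatment. In 29 non-regenerative (NR) digits, 60% to 80% of the phalanx had been removed, and the wound bed was collected at 0, 3, 6, 12 and 24 h and at 3, 7, 14 and 21 d, with 5 digits at 7 d and 3 at each other time. The study's methods set non-regenerative at more than 67%, and the digits are grouped here by label. At each time other than 3 d and 21 d, at least 1 NR digit was at or below this level. All 3 at 12 h were, with 64%, 64% and 67%. In 12 intermediate digits, 41% to 55% had been removed, with 3 digits each at 0 h, 24 h, 14 d and 21 d. The wound bed is a mixture of cell types, and each digit gave 1 library of polyadenylated RNA. A further 9 libraries were from cultured bone marrow macrophages of female C57BL/6 mice aged 6 to 8 weeks, either unpolarised (M0), treated for 24 h with IFN-γ and LPS (M1) or treated for 24 h with IL-4 (M2), with 3 libraries each. Regenerative digits were not analysed here.

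Osteoclasts, the cells that resorb bone, arise from myeloid precursors that need a survival signal through the CSF1 receptor and a differentiation signal through RANK. Both CSF1 and IL-34 bind the CSF1 receptor, whereas RANKL binds RANK and OPG captures RANKL before it can do so. GM-CSF acts on the same precursors through its own receptor and can direct them towards other myeloid fates. Stromal cells, osteoblasts, osteocytes and activated lymphocytes are known sources of RANKL, and interleukin 6 family cytokines, interleukin 1, prostaglandin E and parathyroid hormone raise its transcription in stromal cells. In the amputated digit tip, osteoclasts resorb the stump of the phalanx before new bone is laid down.

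The 5 genes lie on the minus strand of GRCm38. Tnfsf11 (ENSMUSG00000022015) is at chr14:78277445-78308043, Tnfrsf11b (ENSMUSG00000063727) at chr15:54250619-54278484, Csf1 (ENSMUSG00000014599) at chr3:107741048-107760469, Il34 (ENSMUSG00000031750) at chr8:110741829-110805924 and Csf2 (ENSMUSG00000018916) at chr11:54247271-54249667. Il34 overlaps the antisense genes Gm15894 and Gm15895, and Csf2 overlaps the antisense gene Gm12223, so that reads of these partners cannot be told apart unless strand was used in counting. The other 3 genes overlap no annotated gene. The promoters of Tnfsf11 and Csf1 are shown because these genes carry the changes over time described below. They are the 250 bases before the annotated start in RefSeq (GRCm38.p6), read on the minus strand from 5′ to 3′, at chr14:78308044-78308293 for Tnfsf11 and at chr3:107760470-107760719 for Csf1. In the Tnfsf11 window the capitals mark a match to the TATA box letters TATAAA on the opposite strand, 32 to 27 bases before the start. In the Csf1 window they mark a match to the NF-kB consensus on the opposite strand, 154 to 145 bases before the start.
Tnfsf11: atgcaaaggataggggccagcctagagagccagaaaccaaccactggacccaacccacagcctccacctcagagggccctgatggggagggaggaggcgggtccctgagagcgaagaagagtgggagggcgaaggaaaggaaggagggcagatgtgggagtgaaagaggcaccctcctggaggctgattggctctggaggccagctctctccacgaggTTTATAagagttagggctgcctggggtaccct
Csf1: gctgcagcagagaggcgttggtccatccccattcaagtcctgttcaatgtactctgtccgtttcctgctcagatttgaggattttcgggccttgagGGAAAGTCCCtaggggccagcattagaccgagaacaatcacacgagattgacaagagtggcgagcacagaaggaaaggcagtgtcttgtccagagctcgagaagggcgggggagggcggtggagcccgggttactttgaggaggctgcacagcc
Both strands were searched in 32851 promoter windows of the same length. A TATAAA match was in 4063 windows (12.4%), an NF-kB match in 2382 (7.25%) and a match to the AP-1 letters TGANTCA in 2217 (6.75%). The AP-1 letters were in no window of the 3 genes that had an entry. A match is a description of the letters and not of binding.

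The depth of the digit libraries was 1468749 to 13011782 counts over all genes (median 6835347). Levels are given as normalized TPM, the TPM (abundance of each transcript per length and library total) that the authors scaled between libraries. The label of distal phalanx tissue was checked against markers, and keratinocyte, fibroblast and endothelial transcripts were found in every digit. Summed normalized TPM ran from 22930 to 131200 for 9 keratinocyte markers and from 634.1 to 24090 for 8 fibroblast markers. In 3 NR libraries the correlation with each other library of the same group was below a Spearman rho of 0.85. They were replicate 3 at 3 h, replicate 2 at 7 d and replicate 2 at 14 d, in which 11631, 10025 and 13430 genes were detected, against 13001 to 16747 in the other digits. Main results for the 5 genes that rest on them are given with and without them. Means of other genes and marker sums are given only with them. Normalized TPM summed to 3362791 in replicate 2 at 14 d, against 795701 to 1136073 in the digits that do not stand apart. The labels also carry an animal mark and a side, whose use is not explained, and 5 pairs of digits of different groups share mark, date and side. They are NR replicate 1 of 0 h and 3 of 12 h, NR replicate 3 of 3 d and 1 of 7 d, NR replicate 3 and intermediate replicate 1 of 14 d, and intermediate replicates 2 and 3 of 0 h with NR replicates 1 and 2 of 12 h. The rho was 0.948 within the pair of 14 d, higher than that of either with any other digit of 14 d (0.934 and 0.921), and 0.868 to 0.924 within the other 4 pairs. Whether a pair is of 1 animal is not stated. Only digit 3 of each hindlimb was amputated. If the side in the label names the hindlimb, digits that share mark and side are therefore of different animals. The labels carry dates, whose meaning is not stated, from either an earlier or a later period. All NR digits at 3 h and 12 h and all intermediate digits at 21 d are of the earlier period, and all NR digits at 21 d are of the later one.

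Tnfsf11 was scarcely detected at the time of amputation and was higher in most digits from 12 h on. At 0 h the 3 NR digits had 0, 3 and 1 counts, or 0, 0.220 and 0.0804 normalized TPM. At 3 h they had 0.136, 0 and 1.36, the last of these from the library that stands apart, which held 3 counts. At 6 h the levels were 3.90, 0.142 and 0.759. The ranges at 0 h and 6 h overlapped in 1 digit, and 1 of the digits at 6 h was above 1. From 12 h, each NR library other than replicate 2 at 14 d was above all 3 digits of 0 h. The levels were 2.44, 0.783 and 2.80 at 12 h. They were 0.535, 1.95 and 13.1 at 24 h, so that 1 digit held most of the mean of 5.19 ± 6.88 (SD, n = 3). At 3 d they were 1.85, 1.31 and 1.06.

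The highest NR means of Tnfsf11 were found at 14 d and 7 d, but that of 7 d fell below that of 24 h without a library that stands apart. The 5 digits at 7 d had 6.56, 19.0, 1.97, 3.55 and 4.47 normalized TPM, with a mean of 7.11 ± 6.84 (SD, n = 5). The highest was the library that stands apart, and without it the mean was 4.14 ± 1.92 (SD, n = 4). At 14 d the levels were 3.30, 0 and 26.1, where the 0 was the library that stands apart and the highest was the digit that shares its label marks with an intermediate digit. At 21 d they had returned to 1.16, 0.918 and 1.17, a mean of 1.082 ± 0.142 (SD, n = 3), still above each digit of 0 h. Along the order of the 9 time points by mean, all 8 neighbouring pairs overlapped in range.

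**Figure D1:**
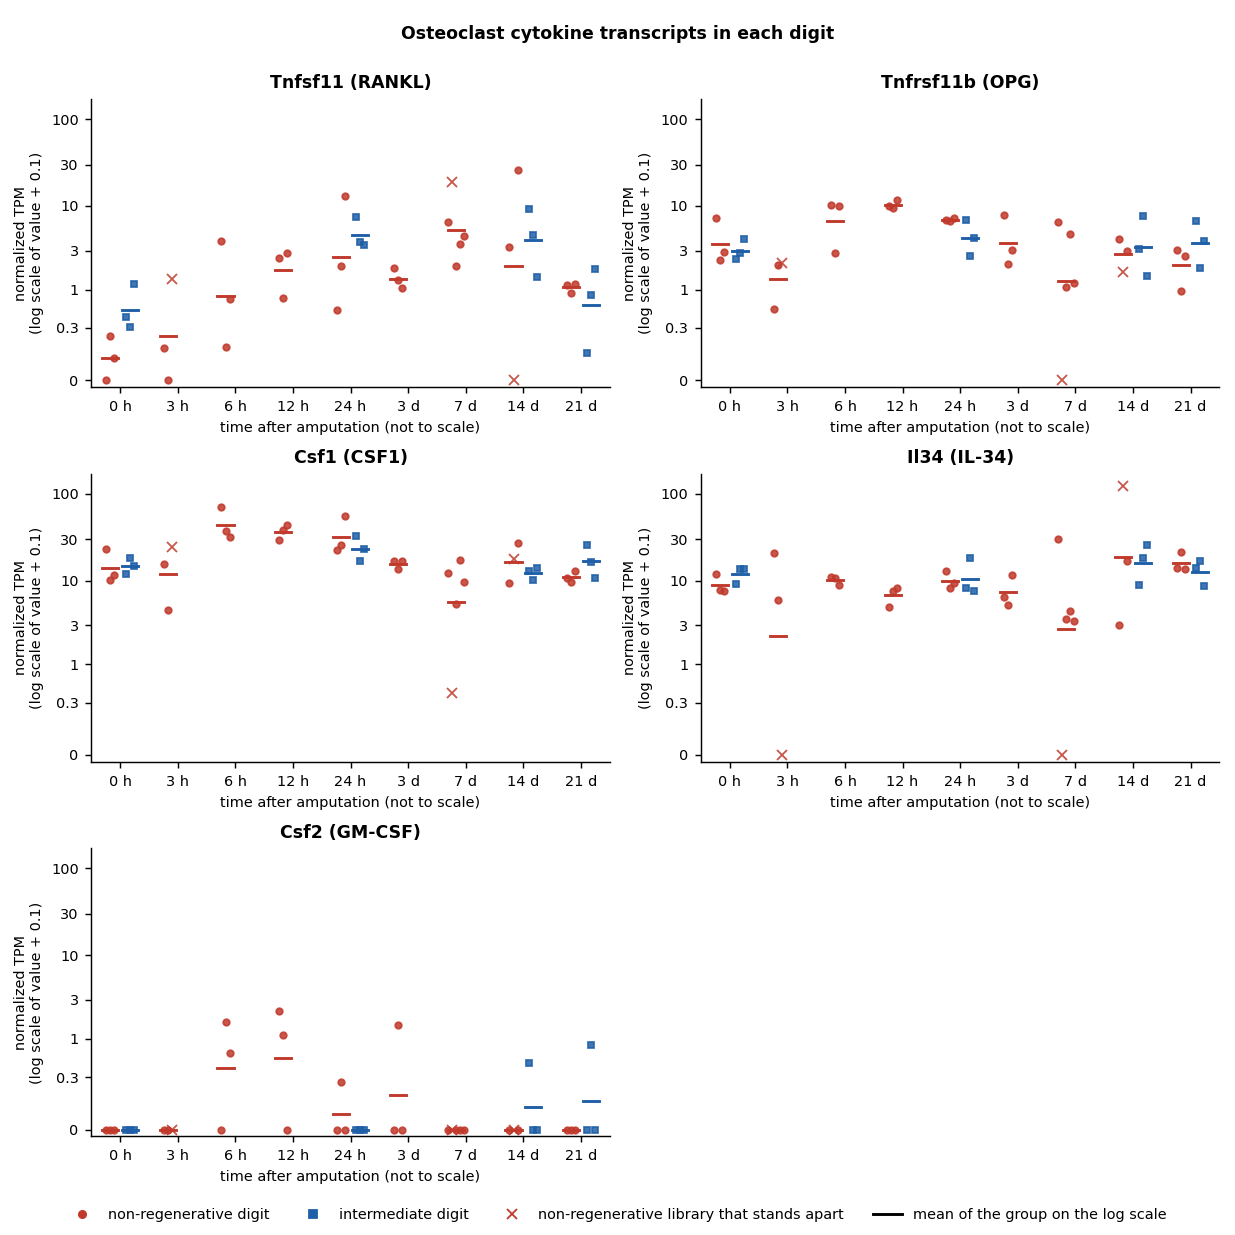
Normalized TPM of the 5 genes in each digit at each time after amputation, on a log scale of the value plus 0.1, with red circles for non-regenerative and blue squares for intermediate digits, crosses for the 3 libraries that stand apart and lines for the group means on that scale. Tnfsf11 lies at or below 0.220 in the NR digits of 0 h and reaches 26.1 at 14 d, while Csf1 is highest at 6 h, 12 h and 24 h and Csf2 is at 0 in most digits.

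Because the 3 NR digits of 0 h held only 4 counts of Tnfsf11 together, ratios of pooled counts are given with their exact 95% interval, which covers counting error only. Against 0 h, pooled Tnfsf11 counts scaled to depth were 2.46-fold at 3 h (0.458 to 13.2), 10.9-fold at 6 h (3.91 to 41.9) and 15.2-fold at 12 h (5.52 to 58.2). They were 32.4-fold at 24 h (12.4 to 120.9), where 97.48 of 125.5 counts were of 1 digit, and 10.9-fold at 3 d (3.85 to 42.3). At 7 d the ratio was 51.7 (19.9 to 191.5), or 29.03 (10.98 to 108.7) without the library that stands apart. At 14 d it was 94.95 (36.8 to 350.1), or 136.9 (53.1 to 504.9) without the library that stands apart, and 378 of the 412 counts were of 1 digit. At 21 d it was 8.75 (3.21 to 33.4). All these comparisons share the 3 digits of 0 h.

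With edgeR's quasi-likelihood test on the digits of each pair of time points, Tnfsf11 passed the filter on low counts at 3 d, 7 d and 21 d, where its adjusted p-values were 0.191, 0.255 and 0.255. DESeq2 called it higher at 12 h, 24 h, 7 d and 14 d. Of all genes it called 996 of 17566, 896 of 17687, 132 of 17186 and 312 of 17412 higher at these times. With all 41 digits in 1 fit, Tnfsf11 was called higher than at 0 h in NR digits at 24 h (log2 fold change 5.34, SE 1.49, adjusted p = 0.0467), 7 d (5.86, SE 1.47, adjusted p = 0.0398) and 14 d (6.19, SE 1.52, adjusted p = 0.0140). In that fit 1.55%, 0.674% and 4.46% of 14996 tested genes were called higher at 24 h, 7 d and 14 d. With a term for the date period added, the calls at 7 d (adjusted p = 0.0396) and 14 d (adjusted p = 0.0144) held and that at 24 h did not. The test of all 9 time points together gave Tnfsf11 an adjusted p of 0.0602, short of the threshold, in a test that called 7.62% of genes. It was 0.00309 when the 3 libraries that stand apart were left out, a fit in which 22.4% of genes were called. With 1 digit left out it ran from 0.0118 to 0.133 and passed without 6 of the 29 digits, replicate 3 at 3 h, replicate 1 at 6 h, replicate 3 at 24 h, replicate 2 at 7 d, and replicates 1 and 2 at 14 d.

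In the intermediate digits Tnfsf11 had a similar sequence of levels, from a 0 h level with more counts. At 0 h it was at 0.432, 0.305 and 1.18 normalized TPM, at 24 h at 7.37, 3.78 and 3.50, at 14 d at 9.29, 4.53 and 1.45, and at 21 d at 0.108, 0.859 and 1.82. All 3 digits at 24 h and at 14 d were above the 3 of 0 h, and the digits of 21 d overlapped them. The means were 0.639 ± 0.473, 4.88 ± 2.16, 5.09 ± 3.95 and 0.929 ± 0.859 (SD, n = 3 each). Pooled counts were 7.91-fold those of 0 h at 24 h (4.82 to 13.8), 10.7-fold at 14 d (6.55 to 18.5) and 1.51-fold at 21 d (0.777 to 2.96). The pairwise fits gave log2 fold changes of 3.06 (SE 0.64, adjusted p = 0.1196) at 24 h and 3.09 (SE 0.80, adjusted p = 0.117) at 14 d, neither past the threshold, where 0.0152% and 1.68% of genes were called. At 21 d, where 1.39% of genes were called, Tnfsf11 was filtered out. DESeq2 called it at 24 h and 14 d (adjusted p = 0.00147 and 0.00551), where 371 of 17855 and 497 of 17728 genes were called by DESeq2. The test of the 4 time points together gave an adjusted p of 0.0607, in a test that called 6.21% of genes, and 0.0464 without replicate 3 at 14 d.

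Tnfrsf11b was highest in NR digits at 12 h and low at 3 h. It stood at 7.28, 2.29 and 2.84 normalized TPM at 0 h, at 0.553, 1.996 and 2.15 at 3 h and at 10.3, 2.82 and 9.99 at 6 h. At 12 h the 3 digits had 10.04, 9.39 and 11.7, a mean of 10.4 ± 1.17 against 4.14 ± 2.74 at 0 h (SD, n = 3 each), with no overlap between these groups. Here and elsewhere, a lack of overlap only describes the levels, since an exact permutation test of 3 digits against 3 cannot go below p = 0.1. The share of all genes without overlap is not given. At 24 h they had 6.77, 6.60 and 7.23. From 3 d the levels were spread from 0, in the library of 7 d that stands apart, to 7.79, and at 21 d they were 3.06, 0.972 and 2.61. Along the order of the 9 time points by mean, all 8 neighbouring pairs overlapped in range.

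The change of Tnfrsf11b at 12 h was 1.42 on the log2 scale (SE 0.43, adjusted p = 0.0517), just short of the threshold, in a comparison in which 11.4% of genes were called and 6.76% were called higher. DESeq2 gave it an adjusted p of 0.0151 and called it, where it called 996 of 17566 genes higher. Without replicate 1 of 0 h, the highest of its group, the change was 2.04 (adjusted p = 0.00306). Over all 9 time points the adjusted p of Tnfrsf11b was 0.230, and 0.0467 without the 3 libraries that stand apart. In the intermediate digits the means were 3.07 ± 0.893 at 0 h, 4.57 ± 2.22 at 24 h, 4.09 ± 3.19 at 14 d and 4.14 ± 2.40 at 21 d (SD, n = 3 each). The 4 groups overlapped, and the adjusted p over time was 0.872.

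The ratio of RANKL to OPG transcripts was taken in each digit as log2((Tnfsf11 + 0.1) / (Tnfrsf11b + 0.1)) of the normalized TPM, so that 0 stands for equal levels. In NR digits it was lowest at 0 h, with a mean of -4.38 ± 1.68 (SD, n = 3). That mean rests on 4 counts of Tnfsf11, and the lowest value, -6.21 in replicate 1, on a level of 0 plus the added 0.1. Tnfrsf11b was the higher transcript in all 3 digits at 0 h, and likewise at 3 h, 6 h, 12 h, 3 d and 21 d. The mean was -2.16 ± 1.98 at 3 h, -2.84 ± 1.27 at 6 h, -2.48 ± 0.82 at 12 h, -1.43 ± 2.16 at 24 h and -1.36 ± 0.70 at 3 d (SD, n = 3 each). It was 1.96 ± 3.25 at 7 d (SD, n = 5), or 0.55 ± 0.96 (SD, n = 4) without the library that stands apart, in which 127 counts of Tnfsf11 met 0 counts of Tnfrsf11b and 0 of Il34. At 14 d it was -0.46 ± 3.61 (SD, n = 3), or 1.38 ± 2.40 (SD, n = 2) without the library that stands apart, and at 21 d -0.83 ± 0.67 (SD, n = 3). All 5 digits at 7 d, and all 3 at 3 d and at 21 d, were above every digit of 0 h.

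In the intermediate digits the log2 ratio was -2.25 ± 0.56 at 0 h, 0.13 ± 0.40 at 24 h, 0.26 ± 1.16 at 14 d and -2.37 ± 2.30 at 21 d (SD, n = 3 each). The digits of 24 h and 14 d were all above those of 0 h, and 2 of the 3 digits of 21 d were. The ratio differed among the 9 time points of the NR digits at an unadjusted p of 0.036 (permutation test of the F statistic, 100000 draws, n = 29), or 0.0822 after Benjamini-Hochberg adjustment over the 3 tests made on the ratio. The exact permutation test over the 4 time points of the intermediate digits gave p = 0.0548 (n = 12, adjusted 0.0822). Permuted only within the date period, the p-values were 0.0389 and 0.0583 (permutation tests). For NR digits the p was 0.0036 without the 3 libraries that stand apart, and with 1 digit left out it ran from 0.0107 to 0.0926 (permutation tests) and missed 0.05 without 11 of the 29. Against 0 h the log2 ratio at 7 d was higher by 6.34 (exact permutation test, two-sided, p = 0.0179, the smallest that 3 against 5 digits allow), or p = 0.197 after adjustment over 11 such comparisons. Without the library that stands apart the difference was 4.93 (exact permutation test, p = 0.0286, the smallest that 3 against 4 digits allow). The other comparisons had 3 digits against 3 and could not go below p = 0.1, which was reached by NR digits at 3 d and 21 d and by intermediate digits at 24 h and 14 d (exact permutation tests).

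**Figure D2:**
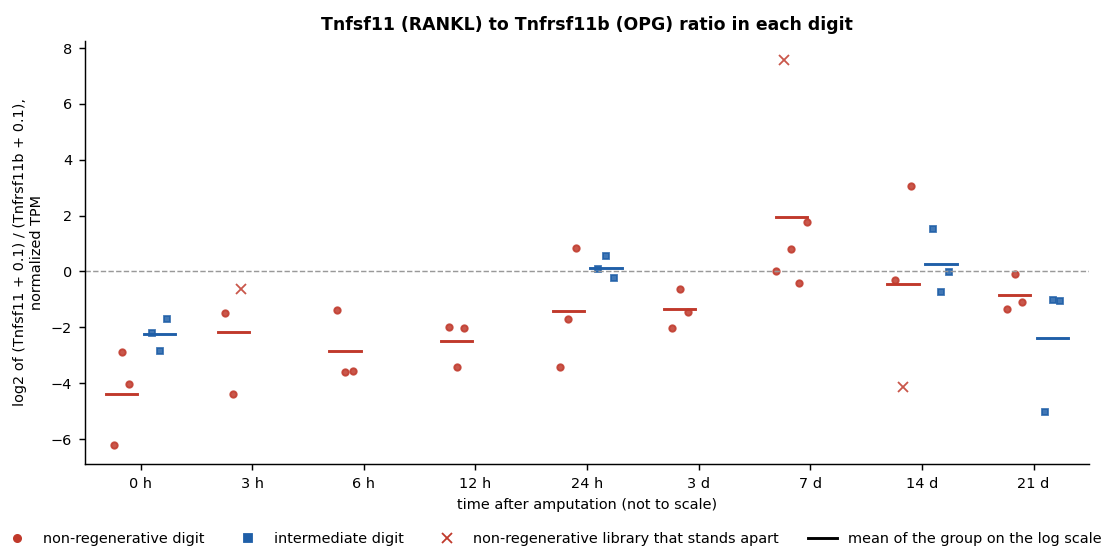
Log2 ratio of Tnfsf11 to Tnfrsf11b normalized TPM, each plus 0.1, in every digit by time after amputation, with red circles for non-regenerative and blue squares for intermediate digits, crosses for libraries that stand apart, lines for group means and a dashed line at equal levels. The NR mean runs from -4.38 at 0 h to 1.96 at 7 d, and the intermediate means are near 0 at 24 h and 14 d and near -2 at 0 h and 21 d.

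Csf1 was the most abundant of the 5 transcripts in NR digits from 6 h to 24 h. Its levels were 23.3, 10.1 and 11.6 normalized TPM at 0 h and 15.7, 4.50 and 24.6 at 3 h. They were 70.3, 37.8 and 31.9 at 6 h, 29.2, 38.4 and 43.9 at 12 h and 22.6, 25.7 and 55.4 at 24 h. The digits of 6 h and 12 h were all above those of 0 h, and at 24 h 1 digit fell below the highest of 0 h. The means were 14.99 ± 7.21 at 0 h, 46.7 ± 20.7 at 6 h, 37.2 ± 7.41 at 12 h and 34.6 ± 18.1 at 24 h (SD, n = 3 each). At 3 d the digits were back between 13.5 and 16.9. At 7 d they had 12.3, 0.416, 5.32, 17.4 and 9.51, where the lowest was the library that stands apart, with 1 count. The digits had between 9.43 and 27.5 at 14 d and between 9.52 and 12.8 at 21 d. Along the order of the 9 time points by mean, all 8 neighbouring pairs overlapped in range.

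Of 40 pairs of a gene and an NR time point against 0 h, 27 could be tested, and the rise of Csf1 at 12 h was the 1 called (log2 fold change 1.119, SE 0.29, adjusted p = 0.0328). At 12 h 11.4% of all tested genes were called, and 6.76% were called higher. The share of all tested genes called in the other comparisons was 0% at 3 h and 14 d, 4.85% at 6 h, 10.7% at 24 h, 0.723% at 3 d, 0.0537% at 7 d and 0.452% at 21 d. At 3 h and 14 d, 1362 and 1044 genes had an unadjusted p under 0.05, and DESeq2 called 202 and 357. The call of Csf1 at 12 h was lost without replicate 2 or 3 of 0 h or of 12 h, where the change was 0.91 to 1.04, and in the fit of all digits, where it was 1.09 (adjusted p = 0.412), or 0.81 (adjusted p = 0.614) with the date period. The changes of Csf1 at 6 h (1.38, SE 0.39, adjusted p = 0.0760) and 24 h (0.91, SE 0.30, adjusted p = 0.0738) missed the threshold, and DESeq2 called that at 6 h (adjusted p = 0.0065). At 6 h DESeq2 called 617 of 17699 genes higher. Replicate 1 of 0 h and replicate 3 of 12 h share their label marks. Without replicate 1 of 0 h, the digit of its group with the most Csf1 and Tnfrsf11b, 6 pairs were called, Csf1 at 6 h, 12 h and 24 h, Tnfrsf11b at 12 h and 24 h and Tnfsf11 at 12 h. Of all genes, 605 of 13779 were called at 6 h, 1895 of 13601 at 12 h and 1707 of 13770 at 24 h in these fits.

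Csf1 was also lower late than early. The mean of 3, 7, 14 and 21 d lay below the mean of 3, 6, 12 and 24 h by a log2 fold change of -1.10 (SE 0.34, adjusted p = 0.035), where 6.76% of 14434 genes were called and 290 of them were lower. Without the 3 libraries that stand apart this was -0.87 (adjusted p = 0.00588). It ran from -1.21 to -0.96 with 1 digit left out and lost its call without 14 of the 29, and with a date period term it was -0.81 (adjusted p = 0.210). In the same contrast Tnfrsf11b changed by -0.96 (SE 0.44, adjusted p = 0.167), Tnfsf11 by 0.94 (SE 0.67, adjusted p = 0.397) and Il34 by 0.57 (SE 0.50, adjusted p = 0.507), none past the threshold. Over the 9 time points together the adjusted p of Csf1 was 0.155, and 0.0038 without the 3 libraries. In the intermediate digits Csf1 stood at 14.9 ± 3.12 at 0 h, 24.1 ± 7.997 at 24 h, 12.4 ± 1.98 at 14 d and 17.7 ± 7.70 at 21 d (SD, n = 3 each), with an adjusted p over time of 0.114. It was 0.038 without replicate 2 at 24 h.

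Il34, the other ligand of the CSF1 receptor, showed no change from 0 h that edgeR called at any time. The NR digits had 12.1, 7.77 and 7.52 normalized TPM at 0 h, between 4.90 and 13.0 at 6 h, 12 h, 24 h and 3 d, and 14.04, 21.6 and 13.7 at 21 d. At 3 h they had 21.1, 5.91 and 0, and at 7 d 30.1, 0, 3.595, 4.43 and 3.39, where both values of 0 came from libraries that stand apart. At 14 d they had 3.004, 124.1 and 16.9, where the highest was the library that stands apart, so that the mean of 48.0 ± 66.3 (SD, n = 3) was 9.96 ± 9.83 (SD, n = 2) without it. The digits of 21 d lay above those of 0 h without overlap (log2 fold change 0.63, SE 0.24, adjusted p = 0.629). Over time the adjusted p of Il34 was 0.482 in NR digits (0.0156 with DESeq2, which called it) and 0.329 in intermediate digits (0.0479 without replicate 1 at 14 d). In that test of the NR digits, DESeq2 called 4431 of 18683 genes. The intermediate means lay between 11.4 ± 6.01 at 24 h and 17.5 ± 8.39 at 14 d (SD, n = 3 each).

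The share of Csf1 in the summed normalized TPM of Csf1 and Il34 had its highest means at 6 h and 12 h. Group means of this share were 61.0% ± 4.67 at 0 h, 80.8% ± 4.84 at 6 h, 84.4% ± 1.117 at 12 h, 74.9% ± 11.03 at 24 h, 67.9% ± 7.45 at 3 d and 40.7% ± 9.12 at 21 d in NR digits (SD, n = 3 each). It was spread more widely at the times with a library that stands apart, with 62.0% ± 32.9 at 3 h and 50.1% ± 33.3 at 14 d (SD, n = 3 each) and 68.4% ± 26.4 at 7 d (SD, n = 5), and it was 100% where such a library had no Il34 count, at 3 h and 7 d. The digits of 6 h and 12 h, from 78.0% to 86.4%, lay above those of 0 h, from 56.6% to 65.9%, and those of 21 d, from 30.6% to 48.3%, lay below. In intermediate digits it was 55.2% ± 2.78 at 0 h, 67.6% ± 17.3 at 24 h, 43.6% ± 13.7 at 14 d and 56.8% ± 7.90 at 21 d (SD, n = 3 each).

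Csf2 was near the limit of detection throughout and did not pass the filter on low counts in any comparison. Without that filter its adjusted p over NR time was 0.22 (edgeR), and no alternative called it. It had at least 1 count in 6 of 29 NR digits, with 23 counts in all and no more than 6 in a digit. At 6 h the digits had 0, 4 and 3 counts, at 12 h 5, 4 and 0, at 24 h 0, 1 and 0 and at 3 d 0, 6 and 0, and the digits of 0 h, 3 h, 7 d, 14 d and 21 d had none. The highest level was 2.20 normalized TPM. In the intermediate digits 2 of 12 had counts, 6 in all. A count of 0 allows up to 3 counts, or 0.231 to 2.04 CPM in the NR digits, so that levels as high as those seen at 6 h or 12 h could not be told from 0 in the shallower libraries.

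Intermediate and NR digits were compared at the 4 times they share. Some of these NR digits, with labels of 62% at 0 h and 63% at 24 h and 14 d, lie in the study's range for intermediate digits. No pair of gene and time was called among 15 tested of 20, and 0 of the 15 had an unadjusted p under 0.05 (edgeR), with 0 calls by DESeq2. Of all tested genes 0% were called at 0 h, 24 h and 14 d and 0.648% at 21 d. At 0 h, 24 h and 14 d, 491, 1472 and 270 genes had an unadjusted p under 0.05, and DESeq2 called 15, 155 and 2. At 21 d the groups carry dates of different periods and the group cannot be told apart from the period. At 0 h Tnfsf11 had 18 pooled counts in intermediate digits and 4 in NR digits, a 4.68-fold ratio after scaling to depth (1.54 to 19.0 by counting error alone). Each intermediate digit of 0 h was above each NR digit of 0 h, and Tnfsf11 was too low there for edgeR's filter.

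Averaged over the 4 times, the log2 difference between intermediate and NR digits was 0.21 for Tnfsf11 (SE 0.60, adjusted p = 0.942), 0.10 for Tnfrsf11b (SE 0.31), -0.22 for Csf1 (SE 0.18) and -0.09 for Il34 (SE 0.33). None was called, as was no gene of 14768, with 1154 at an unadjusted p under 0.05 and 6 called by DESeq2 (0%). The test of whether the time courses differ between the groups called 0% of genes as well, with 1048 at an unadjusted p under 0.05 and 3 called by DESeq2, and its adjusted p-values were 0.885, 0.792, 0.845 and 0.907 for Tnfsf11, Tnfrsf11b, Csf1 and Il34. The log2 ratio of Tnfsf11 to Tnfrsf11b was higher by 0.71 in intermediate digits (exact permutation test within times, two-sided, p = 0.368), and by 0.26 (p = 0.721, exact permutation test) without NR replicate 2 at 14 d. Per 10 percentage points of amputation level and with time as a factor, the log2 change over all 41 digits was 0.06 for Tnfsf11 (SE 0.22), -0.17 for Tnfrsf11b (SE 0.17), 0.09 for Csf1 (SE 0.12) and 0.07 for Il34 (SE 0.17). No gene was called for the level (0% of 14996, 1244 at an unadjusted p under 0.05, 13 called by DESeq2).

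Most of the known inducers of RANKL rose at 12 h and 24 h. Of 14 tested inducers, 10 were called higher at 12 h, against 6.76% of all genes. At 24 h 10 of 13 were called higher, against 5.57%, and at 6 h 6 of 13, against 3.23%. Their median log2 fold change at 12 h was 3.11, against -0.03 over all genes tested. Il6, whose product signals through gp130, had 1.501 ± 1.005 normalized TPM at 0 h and 88.7 ± 56.9 at 12 h (log2 fold change 5.10, SE 0.65, adjusted p = 0.00259). Its mean at 3 h, a time at which edgeR called no gene, was 60.9 ± 59.9. Ptges, the prostaglandin E synthase, had 11.8 ± 4.23 and 140.8 ± 55.1 (3.06, SE 0.28, adjusted p = 0.000699). Lif and Osm, cytokines of the same family as Il6, had 33.8 ± 14.8 and 24.5 ± 7.14 at 12 h, from 2.114 ± 0.776 and 1.15 ± 0.994 at 0 h (SD, n = 3 each). Over the 9 time points 8 of 14 inducers were called, namely Il1b, Il6, Lif, Osm, Osmr, Ptges, Ptgs2 and Pth1r, against 7.62% of all genes. Late against early, 7 of these were lower and Pth1r, the parathyroid hormone receptor, was higher. Il6 was back at 0.224 ± 0.192 and Osm at 0.0220 ± 0.0381 at 21 d (SD, n = 3 each).

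Of the 9 factors known to raise OPG, 3 were called lower at 12 h (Ebf2, Tgfb2 and Tgfb3) and 3 at 24 h (Tgfb2, Tgfb3 and Wnt10b), where 4.64% and 5.14% of all genes were called lower. Others of the list had higher means at 12 h than at 0 h. Tgfb1 had 32.6 ± 7.64 against 24.8 ± 23.7 normalized TPM and Bmp2 10.9 ± 1.62 against 6.52 ± 0.156 (SD, n = 3 each). Tgfb3 fell from 13.2 ± 2.55 normalized TPM at 0 h to 4.63 ± 2.39 at 12 h (log2 fold change -1.44, SE 0.37, adjusted p = 0.0319) and stood at 102.6 ± 31.9 at 14 d (SD, n = 3 each). Over the 9 time points 2 of the 9 were called, Tgfb1 and Tgfb3, against 7.62% of all genes.

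Of 8 receptors none was called over the 9 time points (edgeR, adjusted p from 0.0568 up), and in pairs of times 2 were called at 12 h and 4 at 24 h, where 11.4% and 10.7% of all genes were called. Tnfrsf11a, which encodes RANK, was called lower at 24 h (log2 fold change -1.14, SE 0.31, adjusted p = 0.0388), with 12.5 ± 4.73 normalized TPM at 0 h, 5.54 ± 0.900 at 24 h (SD, n = 3 each) and 23.6 ± 13.5 at 7 d (SD, n = 5). Csf2ra and Csf2rb, the receptor chains of GM-CSF, were called higher at 12 h and 24 h, and Ptprz1, a receptor of IL-34, at 24 h. Csf2rb had 2.124 ± 1.91 normalized TPM at 0 h and 18.1 ± 3.69 at 12 h (SD, n = 3 each). Csf1r was called higher late against early. Of 15 signalling factors downstream of RANK, 4 were called higher at 12 h (Map3k14, Nfkb1, Nfkb2 and Tyrobp), against 6.76% of all genes. Fos alone was called over the 9 time points, where 7.62% of all genes were called. Its mean was highest at 0 h, with 621.4 ± 680.1 normalized TPM against 145.6 ± 39.96 at 12 h (SD, n = 3 each). Csf3, a further colony stimulating factor that was listed beside the 5 genes, had 0 counts in the NR digits of 0 h and 8.59 ± 3.89 normalized TPM at 12 h (SD, n = 3, adjusted p over time 0.00254).

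Of 10 tested genes of differentiated osteoclasts, 5 were called over the 9 NR time points, namely Acp5, Atp6v0d2, Car2, Ctsk and Mmp9, against 7.62% of all genes. In intermediate digits 4 of 11 were called, Acp5, Atp6v0d2, Ctsk and Itgb3, against 6.21% of all genes. In the comparison of 14 d with 0 h in NR digits none was called, as was no other gene (edgeR). Without replicate 2 at 14 d, which stands apart, 271 of 14097 genes were called in that comparison. Ctsk, the protease of resorbing osteoclasts, was in NR digits at 25.5 ± 12.01 normalized TPM at 0 h, 245.7 ± 57.3 at 7 d (SD, n = 5) and 423.0 ± 107.4 at 14 d (SD, n = 3), its highest mean. Atp6v0d2, a proton pump subunit, had 0.0935 ± 0.0817, 5.05 ± 3.65 and 9.496 ± 7.75 at the same times. Both were also detected in the cultured macrophages and were called higher in M2 than in M0 (log2 fold change 1.63 for Ctsk and 2.08 for Atp6v0d2), as were 11% of genes. In M1, Atp6v0d2 was called lower than in M0 (-3.59) and Ctsk was not called. Mmp9 and Car2 are also made by other cells of the wound, and they were high earlier. Mmp9 had 115.1 ± 44.9 at 24 h and 155.3 ± 95.9 at 14 d, and Car2 had 278.3 ± 98.2 at 24 h and 80.5 ± 74.3 at 14 d (SD, n = 3 each).

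**Figure D3:**
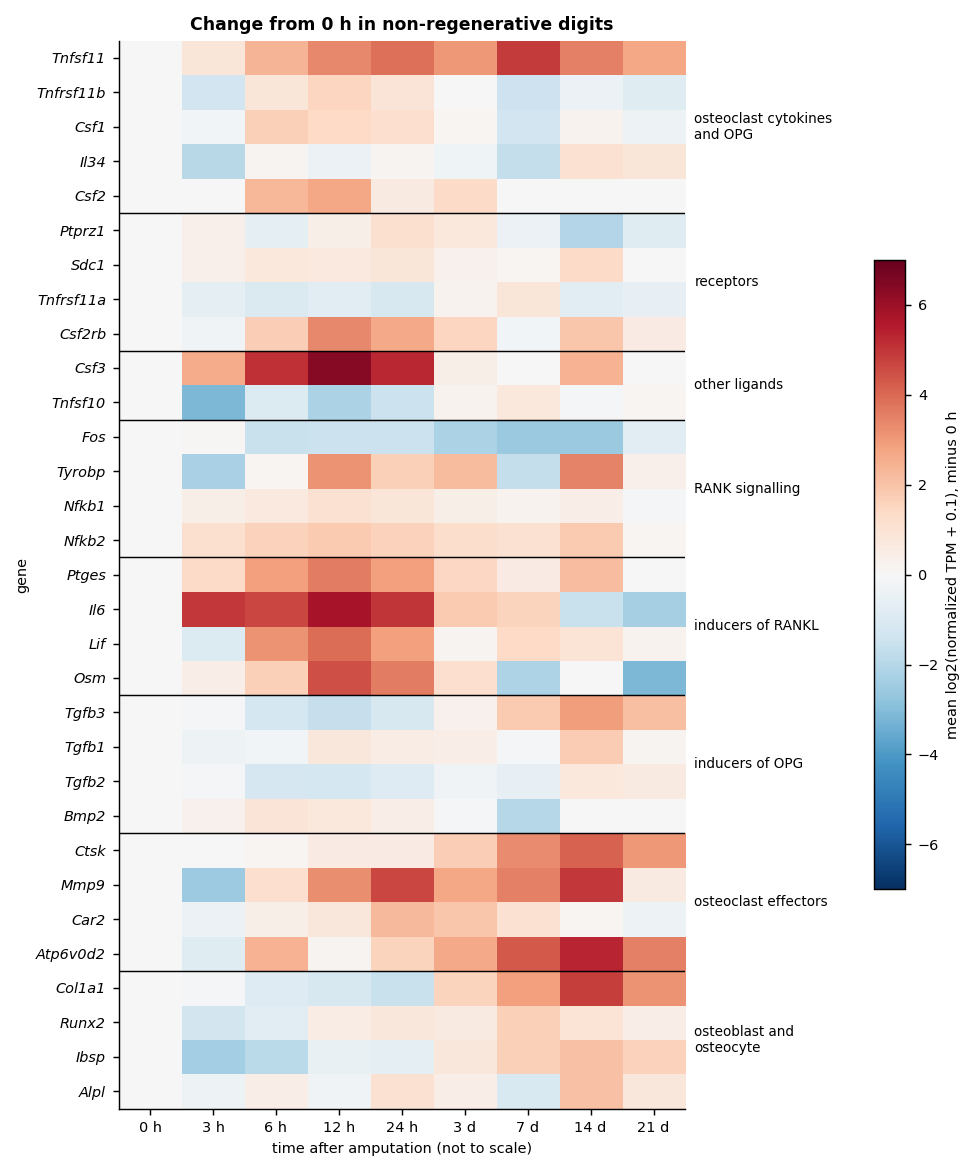
Mean log2(normalized TPM + 0.1) of the NR digits at each time minus that at 0 h, for the 5 genes and up to 4 genes of each pathway list, with red for higher and blue for lower than at 0 h. The inducers of RANKL are reddest from 6 h to 24 h, except Il6, which is at 4.97 at 3 h, 4.66 at 6 h and 5.75 at 12 h. Ctsk and Atp6v0d2 are reddest from 7 d to 21 d, with 5.31 for Atp6v0d2 at 14 d. Mmp9 is at 4.68 and Car2 at 2.27 at 24 h, and Tnfsf11 is at 3.38 at 12 h and 4.90 at 7 d.

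Cell type markers moved over the same times, and in bulk tissue more cells of a type and more RNA per cell cannot be told apart. Summed normalized TPM of 7 neutrophil markers ran from 20.4 to 27.7 at 0 h, from 1134 to 1299 at 24 h and from 3.56 to 28.3 at 21 d in NR digits. Among the digits of 14 d, the highest Tnfsf11 and the highest neutrophil sums were found in the same digits, with 2463 in NR replicate 3 and 2170 in intermediate replicate 1, whose labels share their marks, against 35.0 and 315.6 in the other NR digits and 22.0 and 47.7 in the other intermediate digits. The sum of 12 osteoblast and osteocyte markers ran from 228.5 to 442.2 at 0 h and from 3612 to 10650 at 14 d in NR digits, and 1 of 11 tested markers, Col1a1, was called over time. The NR time test behind this count and those below called 7.62% of all genes. T cell and B cell markers, whose cells are other sources of RANKL, summed to between 3.09 and 66.2 and between 0 and 22.0 in all digits, and 0 of 8 tested T cell markers and 1 of 3 tested B cell markers, Cd79a, were called over time. The median B cell sum in NR digits was 13.3 at 0 h and 0.426 at 24 h. Fibroblast markers, of stromal cells that can also make RANKL, summed to between 1499 and 2730 at 0 h, 664.4 and 1551 at 24 h and 12920 and 24090 at 14 d in NR digits, and 4 of 8 were called over time. The median sum of 8 macrophage markers in NR digits was 120.1 at 0 h, 360.5 at 12 h, 530.0 at 3 d and 477.1 at 14 d, and 1 of the 8, Cd14, was called over time. The part of these cell types in the levels of the 5 genes was not tested.

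The genes whose levels over the 41 digits were most like each of the 5 were ranked by Spearman's rho among 13691 genes with a mean of at least 1 normalized TPM. These are descriptions over digits that share time points and depth. For Tnfsf11 the closest were Fam46a (rho 0.718), Chst11 (0.694), Msr1 (0.694), Nrp2 (0.693) and Tacr1 (0.687). For Tnfrsf11b they were St3gal1 (0.765), Cass4 (0.737), Taf4b (0.735), Isg20 (0.719) and Tmem2 (0.715). For Csf1 they were Clcf1 (0.831), Slc41a1 (0.809), Nfkb1 (0.804), Nlrp3 (0.8) and Icam1 (0.798). For Il34 they were Dgcr2 (0.633), Sult5a1 (0.630), Ick (0.630), Heyl (0.625) and Sema6c (0.621). Csf2 had a mean of 0.212 and was not ranked. Among the 5 genes themselves, Tnfrsf11b and Csf1 had the highest rho (0.620), against 0.210 for Tnfsf11 and Tnfrsf11b and 0.029 for Tnfsf11 and Csf1.

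In cultured macrophages Tnfrsf11b and Csf1 were the genes that depended most on polarisation. Tnfrsf11b was at 7.91 ± 0.846 normalized TPM in M0, 1.83 ± 0.189 in M1 and 43.1 ± 1.97 in M2 (SD, n = 3 each). It was called lower in M1 (log2 fold change -2.11, SE 0.14, adjusted p = 2.13e-08), as were 26% of genes, and higher in M2 (2.38, SE 0.08, adjusted p = 6.26e-10), as were 11%. Csf1 was at 74.4 ± 5.09 in M0, 50.2 ± 2.74 in M1 and 219.3 ± 10.8 in M2 (SD, n = 3 each). It was called higher in M2 (1.49, SE 0.06, adjusted p = 2.17e-09) and was lower in M1 by less than the 2-fold that a call needs (-0.66, SE 0.06, adjusted p = 3.4e-07). Tnfsf11 was low in all states, at 0.397 ± 0.0919, 0.771 ± 0.144 and 0.214 ± 0.0881 in M0, M1 and M2 (SD, n = 3 each). Its M1 change was also under 2-fold (0.94, SE 0.34, adjusted p = 0.0205). Il34 was at 0.820 ± 0.320, 0.648 ± 0.323 and 1.96 ± 0.540 (SD, n = 3 each), with an M2 change under 2-fold (0.85, SE 0.29, adjusted p = 0.0202), and Csf2 had 11 counts over the 9 libraries. Without M0 replicate 2 both changes passed the 2-fold rule (1.114 for Tnfsf11 with adjusted p = 0.0166 and 1.135 for Il34 with adjusted p = 0.00608), and without M1 replicate 1 that of Tnfsf11 did (1.09, adjusted p = 0.024). Digits and macrophages were normalized separately, so their levels are not compared. The labels give no separate animals for the 3 libraries of a state, and p-values there measure the spread between libraries, which may be technical.

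**Figure D4:**
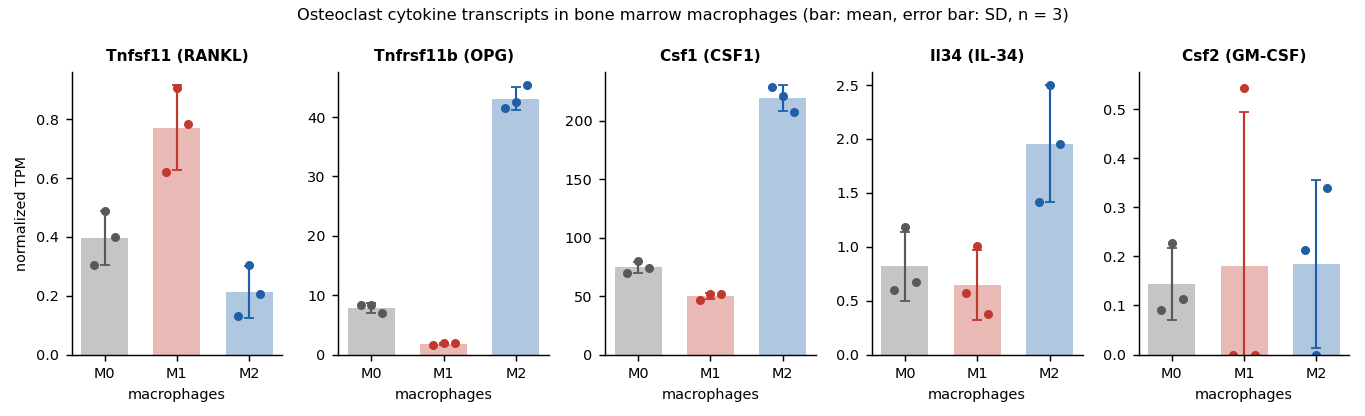
Normalized TPM of the 5 genes in M0, M1 and M2 macrophages, each panel on its own axis from 0, with bars for means, error bars for the SD and points for the 3 libraries of each state. All 3 M2 libraries lie above all M0 libraries for Tnfrsf11b and Csf1, with means of 43.1 against 7.91 and of 219.3 against 74.4.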

How the data were processed

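The 5 genes and the pathway and marker lists were chosen with earlier results of these data known. Polyadenylated RNA of 41 digits and 9 macrophage cultures was sequenced as single-end reads of 65 bases, and samples were grouped by their labels. The authors mapped reads to Ensembl 75 genes of GRCm38 (mm10) with Bowtie, processed them with CASAVA per the labels, and deposited what RSEM 1.2.3 estimated, an expected count per gene that need not be whole because reads are shared among similar genes. The second deposited unit was a signal per gene, normalized TPM, to which the authors had applied median-by-ratio scaling so that libraries can be compared. For digits, 26 gene symbols appeared as dates and were read from the transcript lists instead. No column was left without a sample.

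Expected counts were rounded and tested with edgeR 4.0.16 in R 4.3.3 (filterByExpr, TMM, glmQLFit and glmQLFTest) in place of EBSeq, which the study used and which was not at hand. A call needed an adjusted p (Benjamini-Hochberg, over all genes tested) under 0.05 and group means of the normalized count plus 1 that differed by over 2-fold, with no fold rule for tests over several coefficients and for the amputation level. Each time point was compared with 0 h on the digits of that pair alone. The time effect used all digits of a group, and group differences used the 24 digits of the shared times. Replicate numbers of digits follow accession order and pair nothing. Those of macrophages are in the labels, but libraries of different states that share a number correlated at -0.075 to 0.066 in their deviations, against -0.056 to 0.113 for different numbers, so they were not paired. The log2 ratio used normalized TPM plus 0.1 and permutation tests in scipy 1.17.1. A count of 0 allows up to 3 counts, and intervals cover counting error only. P-values measure the spread between digits or libraries.

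Named pathway genes are the 4 of each list with the smallest adjusted p over the NR time course, and genes listed by name beside a count of calls are those calls. Coordinates are from GENCODE M21 for GRCm38, and promoters from RefSeq. DESeq2 1.42.0, other filters, size factors, pseudocounts, a date period term, 1 fit of all digits and leaving out digits were the alternatives. Leaving out the 3 libraries that stand apart, and permuting within the date period, were added after the data were seen. The tests were checked on simulated counts. Changes were put only into genes above a minimum mean count, with the same spread for all genes and no library that stands apart. The check therefore does not cover genes with few counts or such libraries.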

Additional observations from a re-analysis of the deposited data

Results flagged for a closer look

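At 7 d after amputation, 3 values of the 5 NR digits lay far from the other 4 by Dixon's criterion, for which the gap to the nearest digit divided by the whole range must exceed 0.71 with 5 digits. Il34 was at 30.05 normalized TPM in replicate 1 (gap over range 0.853), against 0 to 4.43 in the others. Tnfsf11 was at 18.98 normalized TPM in replicate 2 (0.73), against 1.97 to 6.56. The log2 ratio of Tnfsf11 to Tnfrsf11b was 7.576 in replicate 2 (0.726), where Tnfrsf11b had 0 counts. Replicate 2 is a library that stands apart from its group. Chance alone flags about 1 in 20 groups.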

How the results depend on the processing

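Of the 40 pairs of a gene and an NR time, 1 was called, against 7 by DESeq2, 4 without the filter on low counts, 3 with all digits in 1 fit, 2 when that fit had a date period term, 2 without the libraries that stand apart, and 0 to 6 with 1 digit left out (6 without replicate 1 of 0 h, 2 without replicate 1 at 24 h or 2 at 14 d, and 0 without replicate 2 or 3 of 0 h or 3 at 12 h). The 4 without the filter were at 12 h and 24 h, where 1579 of 17618 and 1527 of 17739 genes were called without it. In intermediate digits the count was 0, or 2 by DESeq2. The adjusted p over NR time of Tnfsf11 was 0.00063 with DESeq2, 0.0379 without the filter, 0.0365 with DESeq2 size factors, 0.00309 without the libraries that stand apart and 0.0118 to 0.133 with 1 digit left out. Of all genes, 4431 of 18683 were called over NR time with DESeq2, 1287 of 18918 without the filter and 2354 of 14434 with DESeq2 size factors. DESeq2 gave 0.0415 for Tnfrsf11b and 0.0156 for Il34, and leaving out the libraries that stand apart gave 0.0467 for Tnfrsf11b and 0.0038 for Csf1, whose range with 1 digit left out was 0.0104 to 0.342 (the lowest without replicate 2 at 7 d). Late against early, Csf1 changed by -0.81 with the date period and -0.99 with size factors, both past the threshold no longer, and by -1.21 to -0.96 with 1 digit left out, while Il34 turned to -0.037 without the libraries that stand apart. Over intermediate time, Tnfsf11 had 0.00164 with DESeq2, 0.0415 without the filter and 0.0464 to 0.143 with 1 digit left out, Csf1 0.0415 with DESeq2 and 0.038 to 0.304, and Il34 0.0479 to 0.728. Of all genes, 2050 of 18375 were called there with DESeq2 and 1004 of 18394 without the filter. The group difference turned to -0.14 for Tnfrsf11b with the date period and to 0.49 for Il34 without the library that stands apart, with ranges of -0.096 to 0.26 and -0.21 to 0.49. The level coefficient turned to 0.043 for Tnfrsf11b with the date period and to -0.11 for Il34 without those libraries, with ranges of -0.32 to 0.13 for Tnfsf11 and -0.14 to 0.13 for Il34. A pseudocount of 0.01 gave the NR ratio p = 0.0809 (permutation test), and leaving out 1 digit 0.0107 to 0.0926 in NR and 0.00812 to 0.108 in intermediate digits (permutation tests). In macrophages the M1 change of Tnfsf11 ran from 0.78 to 1.114 and the M2 change of Il34 from 0.68 to 1.14 with 1 library left out. With the replicate number as a block, M1 changes were 0.96 for Tnfsf11, -2.09 for Tnfrsf11b, -0.65 for Csf1 and -0.32 for Il34, M2 changes were 2.38, 1.49 and 0.85 for the last 3, and no call changed. No paired analysis was possible for digits because their replicate numbers follow accession order and the groups compared share at most 1 animal mark, date and side in their labels. Of the main results under the settings that leave out no single digit or library, 147 kept direction and side of the threshold or, for counts of calls, a similar count. Another 11 newly passed the threshold, 3 no longer passed it, 5 reversed direction and 6 counts of calls moved. The causes of the changes were not tested.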
